A study of Mus musculus with 12 samples.

Results

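Gluconeogenesis, the making of glucose from lactate, amino acids and glycerol, was followed in mouse liver through 8 genes: Pcx, Pck1, Pck2, G6pc, Slc37a4, Got1, Mdh1 and Ppargc1a. They were taken by gene symbol from a deposited table of 27105 genes, and each was found in 1 row. Liver RNA was sequenced from 6 animals fed a ketogenic diet, which is rich in fat and poor in carbohydrate, and from 6 animals fed a control diet. The series design calls the 6 livers of each diet biological replicates, and each liver gave 1 library. Diet recipes, feeding time, strain, age, sex, fasting before collection and the hour of collection were not stated in the sources used here. Libraries are called below by diet and replicate number (ketogenic 4, control 1).

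In the pathway, pyruvate carboxylase (Pcx) turns pyruvate into oxaloacetate inside mitochondria, and the oxaloacetate reaches the cytosol as malate or aspartate, which the cytosolic enzymes encoded by Mdh1 and Got1 turn back. PEP carboxykinase, cytosolic from Pck1 and mitochondrial from Pck2, then makes phosphoenolpyruvate. At the last step, the transporter encoded by Slc37a4 carries glucose-6-phosphate into the endoplasmic reticulum, where the catalytic subunit encoded by G6pc releases free glucose. Ppargc1a encodes the coactivator PGC-1alpha, known for switching on Pck1 and G6pc in fasted liver. Pck1 and G6pc are known to be raised by glucagon and glucocorticoids and lowered by insulin.

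The libraries held 30176579 to 33538911 counts. Ketogenic 4 stood apart: its median correlation with the other ketogenic libraries was 0.951, against 0.978 to 0.984 for the others. Its deviations from the mean of the other 11 libraries, both diets together, ran against transcript length (rho = -0.57 across genes). Taken the same way, the rho of each other library lay between -0.33 and 0.37. Genes were compared with edgeR's quasi-likelihood test and called where the adjusted p (Benjamini-Hochberg) was under 0.05. Fold changes are log2 ketogenic over control with their standard error. Levels are CPM, each gene's counts as a share of its library scaled with TMM factors, and n = 6 libraries per diet throughout. A bulk level cannot tell fewer cells of a type from less RNA per cell.

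None of the 8 genes was called higher or lower on the ketogenic diet. Over all 13995 genes tested, 2.34% were called higher and 1.44% lower, 3.78% in all. Rises made up 62.0% of those calls, and 77.9% with library size in place of TMM factors. At an unadjusted p under 0.05 the count was also 0 of 8, against 16.7% of all genes. DESeq2 and limma-voom called 0 of the 8 as well. In all 8 genes the ketogenic and control libraries overlapped, whereas the diets did not overlap in 3.54% of all genes, 2.17% with the ketogenic libraries above and 1.37% with them below. The estimates were above 0 for Pck1 and Pcx and below 0 for the other 6, with a median log2 fold change of -0.29, against -0.0010 over all genes tested. That of Mdh1 turned to 0.0011 with library size in place of TMM factors and to 0.0071 without ketogenic 1. Without ketogenic 4, 1 of the 8 was called, Pck2, as lower.

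**Figure D1:**
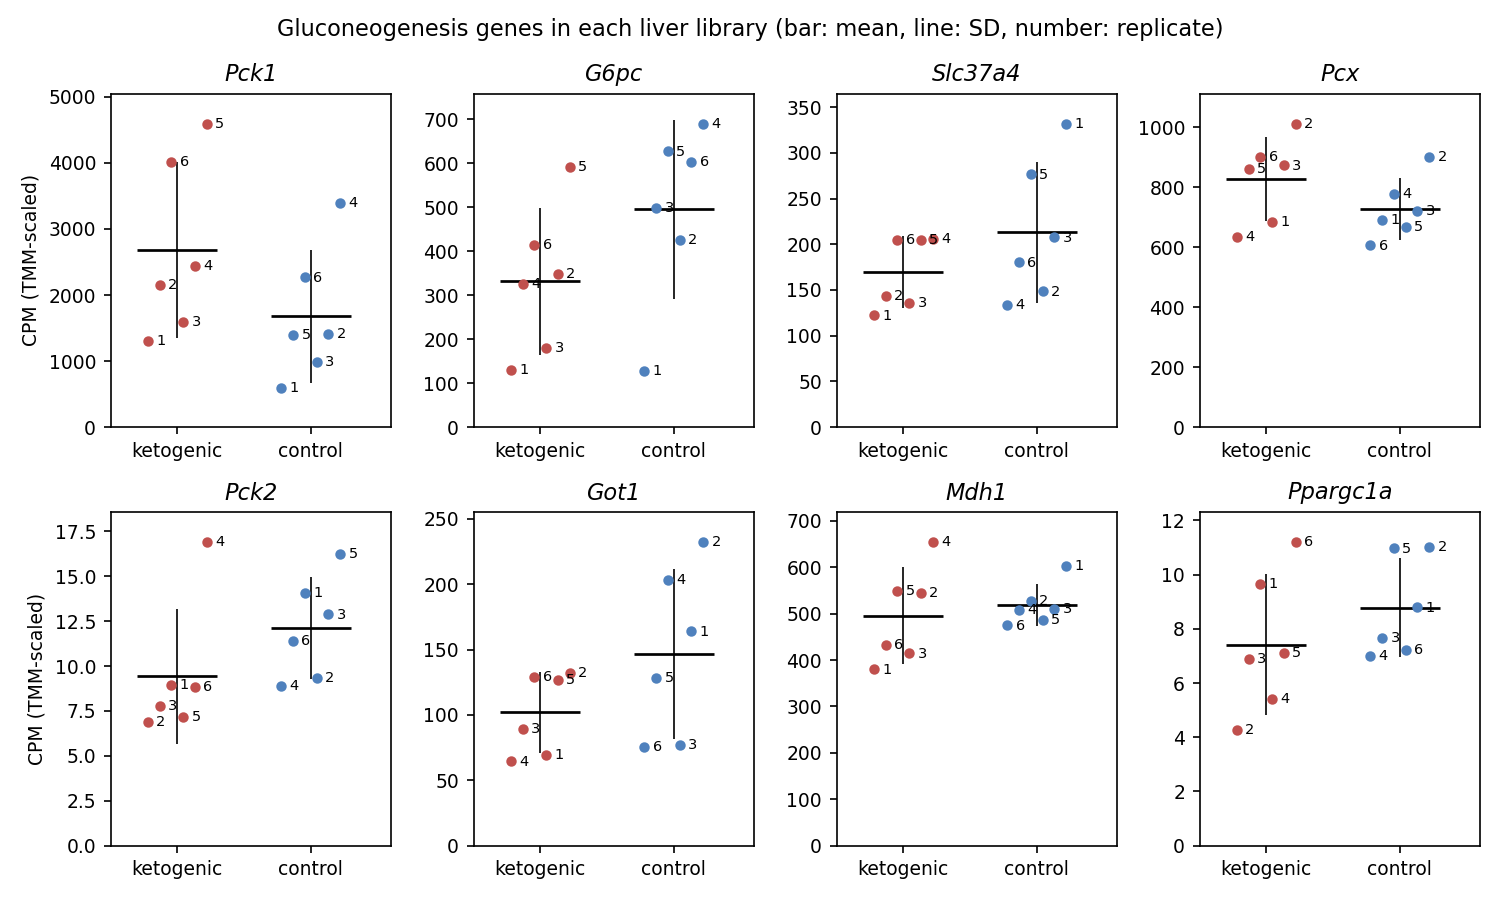
Levels of the 8 gluconeogenesis genes in CPM on linear axes from 0, 1 point per library labelled with its replicate number, ketogenic diet at left and control diet at right in each panel; bars are means and vertical lines SD (n = 6). The diets overlap in every panel, and Pck1 spans 1308 to 4592 CPM over the ketogenic libraries and 598 to 3398 CPM over the control libraries.

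Pcx (ENSMUSG00000024892, chromosome 19, 4560500 to 4671780, as deposited) codes for the enzyme that opens the pathway. Its level ran from 636 over a median of 867 to 1012 CPM in ketogenic livers, and from 606 over a median of 706 to 902 CPM in control livers. The ranges lay almost on top of each other, with 4 of 6 ketogenic libraries above the control mean. The means were 828 ± 141 CPM on the ketogenic diet and 728 ± 103 CPM on the control diet (SD), a log2 fold change of 0.19 ± 0.14 (adjusted p = 0.564, edgeR). The 95% interval of the ratio, 0.930 to 1.39, was among the narrowest of the 8, so that a doubling of this transcript lay outside it.

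Pck1 (ENSMUSG00000027513, chromosome 2, 172994841 to 173001066), the cytosolic PEP carboxykinase, had the highest estimate. In ketogenic livers it ran from 1308 over a median of 2303 to 4592 CPM, and in control livers from 598 over a median of 1406 to 3398 CPM. Ketogenic 5 and 6 stood highest of all 12, control 1 and 3 lowest, and control 4 lay above 4 of the ketogenic livers. The means, 2685 ± 1329 CPM on the ketogenic diet and 1677 ± 1009 CPM on the control diet (SD), differed by a log2 of 0.68 ± 0.40 (adjusted p = 0.455, edgeR). Its interval, 0.876-fold to 2.93-fold, left room for no change and for more than a doubling. With 1 library left out at a time the log2 fold change ran from 0.46 to 1.01, and it was called in 0 of these 12 fits (lowest adjusted p 0.182).

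Pck2 (ENSMUSG00000040618, chromosome 14, 55777723 to 55788699), the mitochondrial form, was a rare transcript. It ran from 6.87 over a median of 8.32 to 16.9 CPM in ketogenic livers, and from 8.90 over a median of 12.1 to 16.2 CPM in control livers. Ketogenic 4 alone held the 16.9 CPM, while the other ketogenic livers, between 6.87 and 8.96 CPM, barely reached the lowest control livers. With all libraries, the means of 9.42 ± 3.75 CPM (ketogenic) and 12.1 ± 2.83 CPM (control) gave a log2 fold change of -0.36 ± 0.22 (adjusted p = 0.465, edgeR). Without ketogenic 4 the log2 fold change was -0.61 ± 0.16 (adjusted p = 0.0385, edgeR), which is past the threshold. It was also past it with 1 surrogate variable (-0.48 ± 0.14, adjusted p = 0.0419). In the other 11 fits with a library left out, and in the other 9 alternatives, Pck2 was not called.

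G6pc (ENSMUSG00000078650, chromosome 11, 101258387 to 101268729), which codes for the catalytic subunit that frees glucose, had an estimate on the other side of 0 from Pck1. Its level ran from 129 over a median of 337 to 593 CPM in ketogenic livers, and from 127 over a median of 551 to 690 CPM in control livers. Control 1, at 127 CPM, lay far below the other control livers, and 5 of 6 ketogenic livers lay below the control mean. The log2 fold change was -0.58 ± 0.40 between 332 ± 167 CPM on the ketogenic diet and 496 ± 204 CPM on the control diet (SD; adjusted p = 0.532, edgeR), with an interval of 0.370-fold to 1.21-fold. Leaving out single libraries moved it between -0.83 and -0.41 with no call.

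Slc37a4 (ENSMUSG00000032114, chromosome 9, 44308149 to 44314265), the glucose-6-phosphate transporter, ran from 122 over a median of 174 to 206 CPM in ketogenic livers, and from 134 over a median of 194 to 332 CPM in control livers. All 6 ketogenic livers lay below the control mean, which was pulled up by control 1 and control 5. The means were 169.5 ± 39.7 and 213 ± 77.0 CPM on the ketogenic and the control diet (SD), a log2 fold change of -0.33 ± 0.22 (adjusted p = 0.527, edgeR).

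Got1 (ENSMUSG00000025190, chromosome 19, 43488191 to 43513044), the cytosolic aspartate aminotransferase, had the smallest p of the 8 before adjustment, 0.0920 by edgeR. It ran from 64.4 over a median of 108 to 132 CPM in ketogenic livers, and from 75.2 over a median of 146 to 232 CPM in control livers. All 6 ketogenic livers were again below the control mean, while control 3, 5 and 6 lay within the ketogenic range. The log2 fold change was -0.53 ± 0.29 between 102 ± 31.2 CPM (ketogenic) and 147 ± 64.9 CPM (control) (adjusted p = 0.408, edgeR).

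Mdh1 (ENSMUSG00000020321, chromosome 11, 21506692 to 21522367), the cytosolic malate dehydrogenase, was the steadiest of the 8 in control livers. It ran from 379.8 over a median of 488 to 654 CPM in ketogenic livers, and from 474 over a median of 509 to 602 CPM in control livers. The ketogenic livers spread to both sides of the control range, with a coefficient of variation of 21.03% on the ketogenic diet and 8.74% on the control diet. The log2 fold change was -0.06 ± 0.14 (adjusted p = 0.884, edgeR), with an interval of 0.782-fold to 1.17-fold.

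Ppargc1a (ENSMUSG00000029167, chromosome 5, 51611592 to 51725068), the coactivator, was the least abundant of the 8. It ran from 4.27 over a median of 7.0 to 11.2 CPM in ketogenic livers, and from 7.02 over a median of 8.23 to 11.0 CPM in control livers. Ketogenic 2 and 4 were the lowest of the 12, and ketogenic 6 was the highest. The log2 fold change was -0.24 ± 0.22 between 7.42 ± 2.59 CPM (ketogenic) and 8.78 ± 1.82 CPM (control) (adjusted p = 0.662, edgeR).

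**Figure D2:**
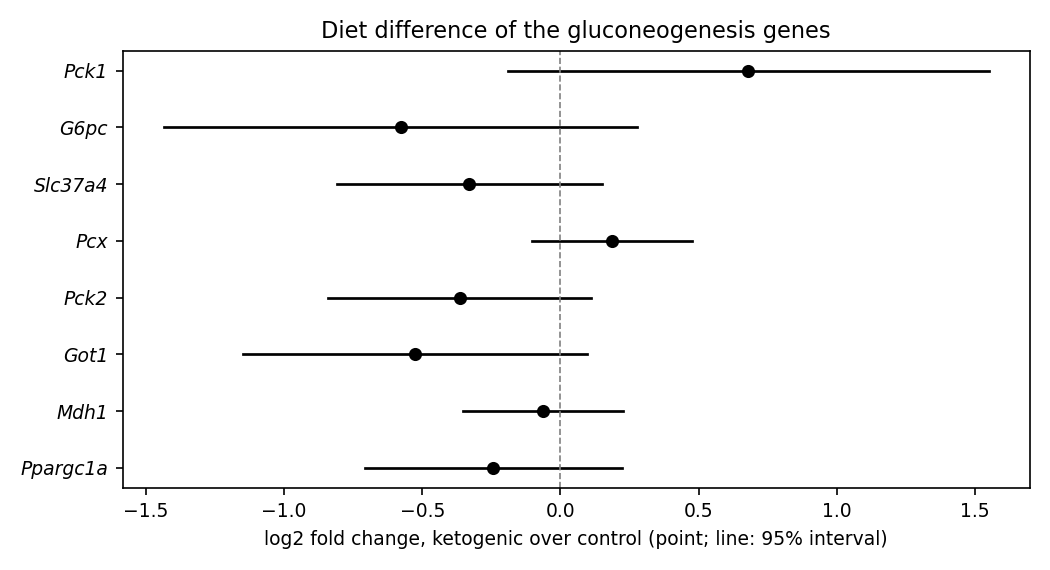
Log2 fold change of each gluconeogenesis gene, ketogenic over control diet (points), with the 95% interval from edgeR's fit (lines); the dashed line marks no difference. Every interval crosses 0, the widest for Pck1 and G6pc and the narrowest for Pcx and Mdh1.

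In the deposited coordinates, Pcx, Mdh1, Pck2 and Ppargc1a overlapped other genes of the table, on the opposite strand for Pcx, Mdh1 and Pck2 and, for 3 of the 4 at Ppargc1a, on the same strand, so that reads could be shared. The overlapping genes held few counts summed over the 12 libraries: 848 for Lrfn4 at Pcx, 758 for Wdpcp at Mdh1, 1 for the lncRNA gene at Pck2 and at most 20 for any of the 4 at Ppargc1a.

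Per kilobase of exonic length, Pck1 was the most abundant of the 8 transcripts on each diet, at 1009 ± 499 CPM per kilobase in ketogenic livers and 630.4 ± 379 in control livers (SD), although in 1 of the 6 control livers Mdh1 was above it. Mdh1, Pcx and G6pc formed a middle group, at 233 ± 49.1, 195 ± 33.3 and 137 ± 69.2 CPM per kilobase in ketogenic livers and 244 ± 21.4, 171 ± 24.2 and 205 ± 84.3 in control livers. Neighbours in this group were not separated by their spread: in ketogenic livers Mdh1 was above Pcx in 4 of 6 and Pcx above G6pc in 5 of 6, and in control livers Mdh1 was above G6pc in 3 of 6 and G6pc above Pcx in 4 of 6. Slc37a4 and Got1 came next, at 64.2 ± 15.1 and 49.5 ± 15.2 CPM per kilobase in ketogenic livers and 80.7 ± 29.2 and 71.3 ± 31.5 in control livers, with Slc37a4 above Got1 in 5 of 6 ketogenic and 4 of 6 control livers. Pck2 was far below them, at 2.04 ± 0.811 CPM per kilobase in ketogenic and 2.62 ± 0.612 in control livers, and Got1 was 24.3 times and 27.2 times as abundant by the means. Ppargc1a was last, at 1.15 ± 0.401 CPM per kilobase in ketogenic and 1.36 ± 0.282 in control livers, below Pck2 in 6 of 6 livers of each diet.

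Livers of the same diet differed widely in Pck1 and G6pc. From the lowest to the highest liver, Pck1 spanned 3.51-fold on the ketogenic and 5.68-fold on the control diet, and G6pc spanned 4.58-fold and 5.42-fold. The coefficient of variation of Pck1 was 49.5% on the ketogenic and 60.2% on the control diet, larger than in 94.95% and 97.65% of the 12278 genes averaging 1 CPM or more, and that of G6pc was 50.3% and 41.1%, larger than in 95.25% and 93.16%. The median over those genes was 20.1% on the ketogenic and 15.3% on the control diet. Pcx had 17.1% on the ketogenic and 14.1% on the control diet.

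The levels of Pck1 and G6pc were correlated between livers, though not past the threshold once replicate number was removed too. With each diet's mean removed, the log2 levels of the pair had a Pearson r of 0.87 over the 12 libraries (permutation p = 0.00017, adjusted p = 0.00476 over all 28 pairs of the 8 genes) and a Spearman rho of 0.84 (permutation p = 0.00246, adjusted p = 0.0344). Without the libraries farthest from the median of Pck1, control 1 and control 4, r was 0.86. Within the ketogenic livers r was 0.95 and within the control livers 0.82. The lowest liver of each diet was the same for both genes, ketogenic 1 and control 1, and so was the highest, ketogenic 5 and control 4. The call held with any 1 library left out (r 0.82 to 0.92, highest adjusted p 0.0416).

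Levels of some genes also went with the replicate number, alike on both diets. Over all genes tested, deviations of same-numbered livers from their diet means correlated at only -0.29 to 0.34. Igfbp1 and Pdk4, a kinase gene that responds to fasting, were higher in each of the livers numbered 4 to 6 than in any numbered 1 to 3. Pdk4 was at 85.8 to 243 CPM in ketogenic livers 4 to 6 and at 10.03 to 51.2 CPM in ketogenic livers 1 to 3, and at 181 to 313 CPM in control livers 4 to 6 and 4.41 to 33.2 CPM in control livers 1 to 3. Igfbp1, Pdk4 and this split were picked after the values were seen, and its share over all genes was not counted. In ketogenic livers Pck1 split alike (2447 to 4592 CPM in 4 to 6, 1308 to 2159 CPM in 1 to 3). In control livers G6pc did (604 to 690 CPM in 4 to 6, 127 to 498 CPM in 1 to 3). On the other diet each overlapped: control 5 was below control 2 in Pck1, and ketogenic 4 below ketogenic 2 in G6pc. What the numbers stand for was not stated, and the permutation treats the livers of a diet as exchangeable. With the mean of each number removed as well, r between Pck1 and G6pc was 0.63 (exact permutation p = 0.196, adjusted p = 0.685, n = 6 numbers), a setting chosen after the data were seen. The 6 numbers have only 720 orders, so over 28 pairs a lone pair could pass the threshold only at the most extreme order. The lack of a call in this setting therefore cannot show that a correlation was removed. The part of whatever the number marks was not tested.

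**Figure D3:**
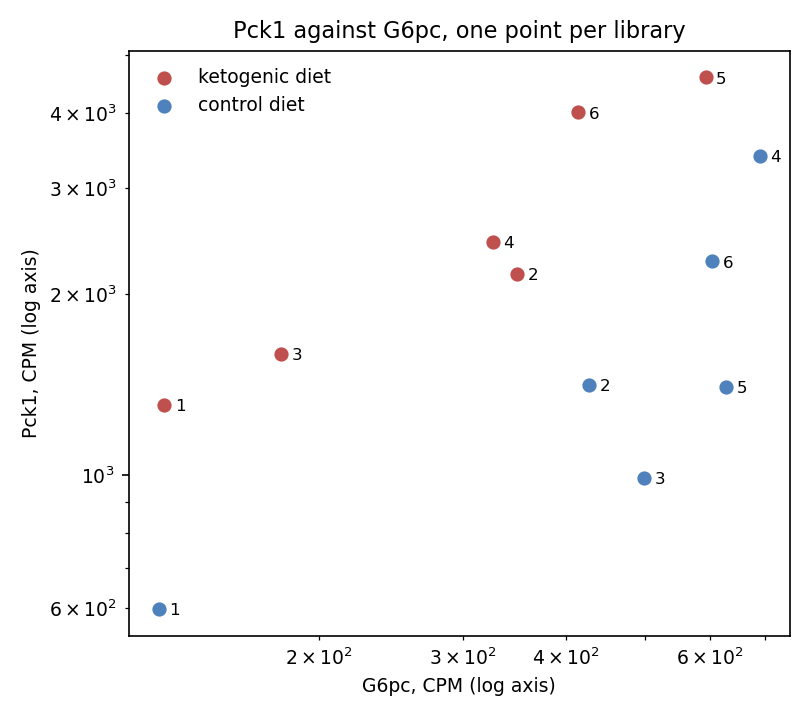
Pck1 against G6pc in CPM, both on log axes, 1 point per library with its replicate number, ketogenic diet in red and control diet in blue. Both diets rise from lower left to upper right, and the ketogenic points lie above the control points at a given G6pc level.

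The proportion of the 2 transcripts did not overlap between the diets. Per kilobase, Pck1 was 5.61 to 9.17 times as abundant as G6pc in ketogenic livers, with a median of 7.54, and 1.80 to 4.47 times as abundant in control livers, with a median of 3.20. All 6 ketogenic livers lay above all 6 control livers in this ratio. It was the only ratio without overlap between the diets among the 28 pairs, a share of 3.57%. Of single genes, 3.54% had no overlap, which is an unlike measure, and the share among ratios of other genes was not counted. The ratio was looked at after the values were seen, and no test was made of it.

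Pcx and Got1 were the other correlated pair, with r = 0.79 (permutation p = 0.00196, adjusted p = 0.0274) and a rho of 0.82 (permutation p = 0.00147, adjusted p = 0.0344). The r was 0.72 without the libraries farthest from the median of Pcx, ketogenic 1 and ketogenic 4, and it was 0.92 within the ketogenic and 0.76 within the control livers. This call was less firm: it was not made without ketogenic 1, 2, 4 or 6 or without control 2 or 6 (r 0.73 to 0.89, adjusted p 0.0014 to 0.106 over the 12 libraries left out in turn), nor with the length trend removed (r = 0.79, adjusted p = 0.0524). With the mean of each replicate number removed, r was 0.96 (exact permutation p = 0.00417, adjusted p = 0.117, n = 6 numbers). Ppargc1a was not called as related to either of its known target genes, with an r of -0.08 to Pck1 (permutation p = 0.801, adjusted p = 0.966) and -0.18 to G6pc (permutation p = 0.593, adjusted p = 0.887).

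**Figure D4:**
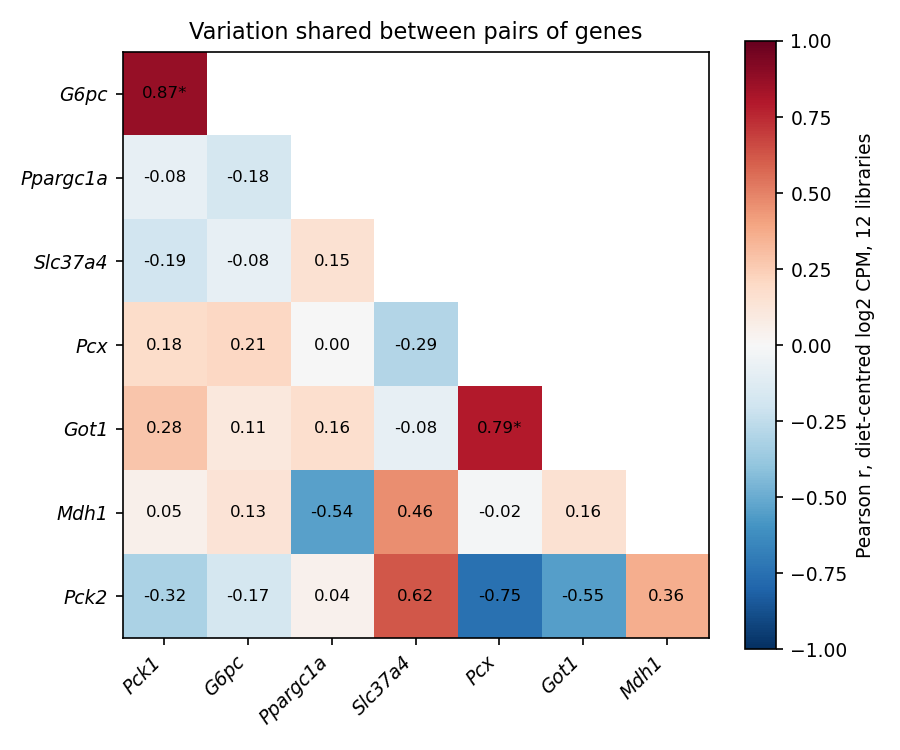
Pearson r between pairs of the 8 genes over 12 libraries, from log2 CPM with each diet's mean removed; colour runs from blue (-1) to red (1), and a star marks an adjusted permutation p under 0.05. Stars stand at Pck1 with G6pc (0.87) and Pcx with Got1 (0.79). An r near 0 can hide opposite signs within the ketogenic and control livers, picked here after the values were seen and not tested. These were 0.89 and -0.79 for Pck1 with Slc37a4, 0.84 and -0.64 for G6pc with Slc37a4, and 0.65 and -0.94 for G6pc with Mdh1. Without control 1 and control 4, r over both diets was 0.53 for Pck1 with Slc37a4.

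The genes with a pattern most like these were found among 11793 other protein-coding genes averaging 1 CPM or more, by the highest r over the 12 libraries with diet means removed, so that no p is given. Most like Pck1 were Nr4a2, an orphan nuclear receptor gene (r = 0.95, at 1.20 ± 0.298 CPM in ketogenic and 1.33 ± 0.694 CPM in control livers), Zfand5 (0.94) and the phosphatase gene Ppm1h (0.94). Most like G6pc were Igfbp1, a secreted binding protein of insulin-like growth factors (0.91), the thioredoxin-interacting protein gene Txnip (0.91) and Irf2bp2 (0.90). Igfbp1 had an even wider spread than G6pc, from 31.7 CPM in ketogenic 1 to 921 CPM in ketogenic 5, and from 17.6 CPM in control 1 to 1001 CPM in control 6. Txnip was likewise lowest in ketogenic 1 and control 1, at 124 and 99.2 CPM. Most like Ppargc1a were Abr (0.88), Clec9a (0.86) and Frmd6 (0.85). Their r was 0.91, 0.97 and 0.91 within ketogenic livers but 0.78, 0.58 and 0.65 within control livers. Clec9a was a rare transcript, at 2.35 ± 0.597 CPM in ketogenic and 2.21 ± 0.373 CPM in control livers (SD). None of these 9 genes was called between the diets (lowest adjusted p 0.342, Ppm1h, edgeR).

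The 250 bases before the RefSeq start sites of Pck1, G6pc and Igfbp1 are given because these are the pair with the highest r and the gene most like G6pc. They are from GRCm38.p6, plus strand, 5′ to 3′. Capitals mark 3 motifs searched for on both strands: TGACGT, part of the cAMP response element (read as ACGTCA on the other strand), TGTTTTG, a core of insulin response sequences (CAAAACA on the other strand), and the TATA box TATAAA.
Pck1, chr2:173152823-173153072: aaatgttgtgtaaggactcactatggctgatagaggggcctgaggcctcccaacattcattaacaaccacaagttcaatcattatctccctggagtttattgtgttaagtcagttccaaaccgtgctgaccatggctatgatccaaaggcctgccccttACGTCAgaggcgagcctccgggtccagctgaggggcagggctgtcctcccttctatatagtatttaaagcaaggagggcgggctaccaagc
G6pc, chr11:101367466-101367715: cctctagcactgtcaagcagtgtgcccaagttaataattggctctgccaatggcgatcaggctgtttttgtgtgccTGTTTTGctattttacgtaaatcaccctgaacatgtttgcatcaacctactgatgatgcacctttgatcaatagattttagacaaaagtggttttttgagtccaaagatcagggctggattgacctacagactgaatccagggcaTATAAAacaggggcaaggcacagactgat
Igfbp1, chr11:7197537-7197786: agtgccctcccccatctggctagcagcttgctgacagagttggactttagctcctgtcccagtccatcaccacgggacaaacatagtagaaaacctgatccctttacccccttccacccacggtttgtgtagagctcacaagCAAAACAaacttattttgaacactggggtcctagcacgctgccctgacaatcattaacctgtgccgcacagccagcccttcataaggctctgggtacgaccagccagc

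In Pck1, ACGTCA began 91 bases before the start. In G6pc, TGTTTTG began 174 and TATAAA 29 bases before the start, and in Igfbp1, CAAAACA began 108 bases before it. All 8 members matched the RefSeq promoter table, with 11 windows in all because Slc37a4 and Pcx have several starts. TGACGT was found for Pck1, Ppargc1a and Slc37a4, in 4 of the 11 windows, and in 6.47% of all 32851 windows. Overlapping windows of Slc37a4 gave more than 1 of these 4. TGTTTTG was found for G6pc and Pck2, in 2 of the 11 windows, and in 5.56% of all windows. TATAAA was found for G6pc and Slc37a4, in 2 of the 11 windows, and in 12.4% of all windows. The full palindrome TGACGTCA (1.55% of all windows) and the FOXO motif TGTTTAC (3.17%) were not in these letters for any of the 8. A match shows letters and no binding.

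Calls were made among the remaining enzymes of the route from pyruvate to glucose. Of 11 genes tested for the steps shared with glycolysis and for fructose-1,6-bisphosphatase, 3 fell and 1 rose, with a median log2 fold change of -0.14. Over all genes tested, 1.44% fell and 2.34% rose. Gapdh, counted among the 11, was at only 11.6 ± 9.84 CPM in ketogenic and 10.6 ± 8.95 CPM in control livers (SD). Tpi1 of the same list was at 405 ± 64.0 and 357 ± 48.2 CPM. Why the Gapdh row was so low was not tested. Fbp1, the liver fructose-1,6-bisphosphatase, fell to 709 ± 100.1 CPM in ketogenic livers, against 1054 ± 142 CPM in control livers (-0.57 ± 0.13, adjusted p = 0.0206, edgeR), with overlapping diets. The call was not made without ketogenic 3, control 1 or control 2 (adjusted p up to 0.0581). The phosphoglucose isomerase gene Gpi1 fell to 199 ± 15.9 CPM, against 314 ± 70.9 CPM in control livers (-0.66 ± 0.14, adjusted p = 0.0161, edgeR). Fbp2, the muscle form, rose by 2.01 ± 0.44 (adjusted p = 0.0194, edgeR), to 0.831 ± 0.361 CPM in ketogenic livers, against 0.207 ± 0.159 CPM in control livers, which is under 1 CPM on either diet.

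Of 5 genes tested for the opposing glycolytic steps, 3 fell on the ketogenic diet, against 1.44% of all genes tested. Among them, the pyruvate kinase gene Pklr fell to 134 ± 18.5 CPM, against 424 ± 90.6 CPM in control livers (-1.66 ± 0.15, adjusted p = 6.80e-05, edgeR), and Gckr fell to 92.5 ± 7.18 CPM, against 131 ± 12.8 CPM in control livers (-0.50 ± 0.09, adjusted p = 0.00862). Both were called in 12 of 12 fits with a library left out. The median of the list was -0.50.

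Of 16 genes for the entry of lactate, alanine, serine and glycerol, 1 rose and 1 fell, 6.25% each way, with a median log2 fold change of 0.20. The shares over all genes tested were 2.34% and 1.44%. The alanine aminotransferase gene Gpt2 rose to 566 ± 167 CPM in ketogenic livers, against 360.4 ± 52.0 CPM in control livers (0.65 ± 0.17, adjusted p = 0.0494, edgeR). The serine dehydratase gene Sds fell to 48.6 ± 7.72 CPM, against 75.5 ± 19.3 CPM in control livers (-0.64 ± 0.16, adjusted p = 0.0444, edgeR). Both stood just inside the threshold: Gpt2 was called only without ketogenic 1 or 4 (adjusted p up to 0.121) and Sds only without ketogenic 4 or 6 or control 6 (adjusted p up to 0.105) among the 12 fits with a library left out, and limma-voom called neither.

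Of 8 mitochondrial partner enzymes and carriers, 0 were called by edgeR, 5 had an unadjusted p under 0.05, DESeq2 called 2 and limma-voom 0, with a median log2 fold change of 0.28. The edgeR shares over all genes tested were 3.78% called and 16.7% with an unadjusted p under 0.05. Without ketogenic 4, 1 was called. Got2 and Mdh2, the mitochondrial counterparts of Got1 and Mdh1, were at 0.24 ± 0.09 (adjusted p = 0.195, edgeR) and 0.32 ± 0.12 (adjusted p = 0.173). Of the other glucose-6-phosphatase genes, G6pc3, the widely expressed form, stood at 5.64 ± 0.570 CPM in ketogenic and 5.34 ± 0.626 CPM in control livers (0.08 ± 0.12, adjusted p = 0.822, edgeR).

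**Figure D5:**
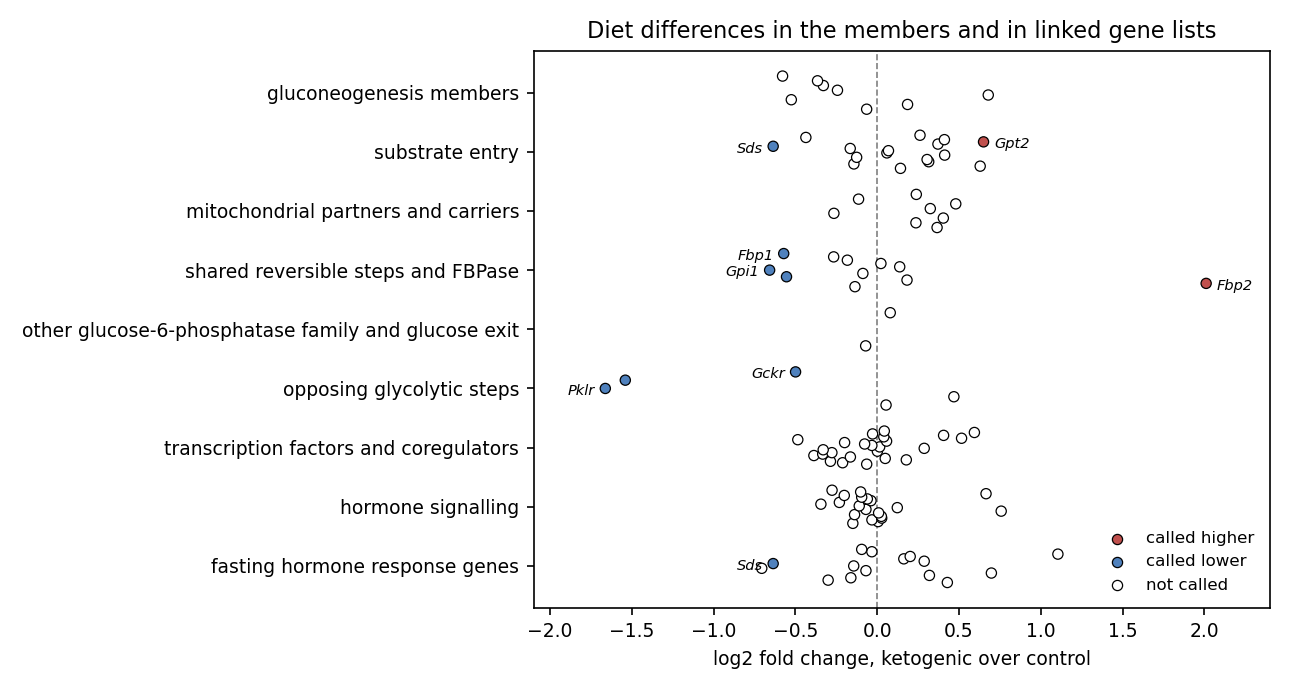
Log2 fold change, ketogenic over control diet, of every tested gene in the 8 gluconeogenesis members (top row) and in 8 linked gene lists; 1 circle per gene, red for genes called higher, blue for genes called lower and white for genes not called (edgeR). Calls stand in the rows of substrate entry, shared steps, opposing steps and fasting hormone response, and the top row has none.

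Neither the transcription factors of the pathway nor its hormone signalling genes held a call in edgeR. Over all genes tested, edgeR called only 3.78%, and 16.7% had an unadjusted p under 0.05. Among 24 transcription factors and coregulators, 0 were called, 5 had an unadjusted p under 0.05, and DESeq2 called 1 and limma-voom 0. Without ketogenic 4, 1 was called. Foxo1, which drives G6pc and Pck1 when insulin is low, stood at 47.4 ± 8.48 CPM in ketogenic and 46.1 ± 8.18 CPM in control livers (0.04 ± 0.14, adjusted p = 0.937, edgeR). The liver factor gene Hnf4a was at -0.21 ± 0.16 (adjusted p = 0.597), the cAMP-response factor gene Creb1 at -0.28 ± 0.11 (adjusted p = 0.225), its coactivator gene Crtc2 at 0.00093 ± 0.10 (adjusted p = 0.998) and Ppargc1b, a relative of Ppargc1a, at -0.08 ± 0.29 (adjusted p = 0.938). Among 20 genes of hormone signalling, 0 were called by any of the 3 tools and 1 had an unadjusted p under 0.05. The glucagon receptor gene Gcgr was at 267 ± 25.1 CPM in ketogenic and 245 ± 10.4 CPM in control livers (0.12 ± 0.09, adjusted p = 0.566, edgeR). Of 15 genes known to respond to fasting hormones, Sds was the only call, with a median log2 fold change of -0.03.

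Other features of these livers moved with diet beside the 8 genes. For the counts below, 2.34% of all genes tested were called higher and 1.44% lower. Pck1 and G6pc are known to be higher in hepatocytes near the portal vein. The 6 periportal markers summed to 1817 to 2465 CPM in ketogenic livers and to 2621 to 3310 CPM in control livers, and 3 of the 6 fell. The 7 pericentral markers summed to 9481 to 12719.7 CPM in ketogenic livers and to 4999 to 8301 CPM in control livers. Most of these sums came from Cyp2e1, at 8527 ± 770 CPM in ketogenic and 5115 ± 1331 CPM in control livers (SD). Cyp2e1 was the only 1 of the 7 called (0.74 ± 0.17, adjusted p = 0.0232, edgeR). The other 6 were not called, though all 7 estimates were above 0. Of 13 clock genes, Per3 and Tef rose (2.12 ± 0.51 and 0.84 ± 0.22, adjusted p = 0.0365 and 0.0478, edgeR), and Cry1 and Npas2 fell, with log2 fold changes of -1.12 ± 0.24 and -2.15 ± 0.52 (adjusted p = 0.0185 and 0.0364). Cry1 was called in 12 of 12 fits with a library left out, Npas2 only without control 4, 5 or 6, Per3 only without ketogenic 2, 3, 4 or 5 or control 6, and Tef only without control 6 (adjusted p up to 0.0857, 0.0829 and 0.110). The part of zone or clock genes in the levels of the 8 genes was not tested.

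Hepatocyte markers summed to 84053 to 107734 CPM in ketogenic and 95966 to 141912 CPM in control livers, and all 6 were detected in all 12 libraries. Of 34 tested markers of Kupffer, endothelial, stellate, bile duct, white blood and red blood cells, 0 were called by edgeR, DESeq2 or limma-voom and 5 had an unadjusted p under 0.05. With edgeR, 3.78% of all genes tested were called and 16.7% had an unadjusted p under 0.05. Markers of kidney tubule, another tissue that makes Pck1 and G6pc, summed to at most 0.117 CPM in ketogenic and 0.992 CPM in control livers.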

How the data were processed

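The authors deposited raw counts, whole-number reads per gene for each of 12 liver libraries with no normalization. Per the submitters' processing notes, the tools were HISAT2 2.1.0, StringTie 1.3.4d, fastp 0.19.3 and Cufflinks, with no role given. The read counter, its strand setting, the annotation and the genome build were not stated in the sources used here. Among 26914 gene IDs shared with GENCODE M21 (GRCm38), 554 had the same start and end, so no build was assigned to the deposited coordinates. Libraries held 30176579 to 33538911 counts. No 2 libraries of a diet agreed within sampling noise (chi-square over its degrees of freedom was at least 36.0).

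The whole table was fitted with edgeR 4.0.16 in R 4.3.3, using filterByExpr by diet (13995 genes left), TMM factors and the robust quasi-likelihood test with diet as the only term. Calls needed a Benjamini-Hochberg adjusted p under 0.05 over all genes tested. The SE is the fold change divided by the square root of F, and intervals use the fit's degrees of freedom. CPM are TMM-scaled. Levels per kilobase divide CPM by the exonic union length in GENCODE M21. For correlations, log2 CPM (prior count 2) were centred on each diet mean and permuted 100000 times within diets, two-sided. On simulated counts for the 13995 genes, edgeR called 71 of 100 genes given a log2 change of 1 and 98 of 100 given 2, and 8 of 177 calls were unchanged genes.

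The members and gene lists were chosen with earlier results of these data known. Named beside the 8 members are up to 4 called genes of each list by smallest p (a few are not reported here), 10 fixed genes, and the 3 protein-coding genes most like Pck1, G6pc and Ppargc1a. Alternatives were DESeq2 1.42.0, limma-voom (limma 3.58.1), RLE factors, library size only, no filter, at least 1 CPM in 6 libraries, the replicate number as a block, a length trend taken out per library (a spline with 4 degrees of freedom), both of these together, 1 surrogate variable (sva 3.50.0), and each library left out. For correlations they were library size only, a prior count of 0.5, the length trend removed, Spearman's rho, each library left out, and, chosen after seeing the data, the replicate number removed with an exact permutation test.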

Additional observations from a re-analysis of the deposited data

Results flagged for a closer look

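In 3 of 78 sets of 6 libraries (each of 39 named genes on each diet), 1 library lay farther from the rest than Dixon's 95% limit of 0.625 of the range, and chance flags about 1 in 20 sets. Pck2 was at 16.9 CPM in ketogenic 4, against 6.87 to 8.96 CPM in the other ketogenic livers. Mdh2 was at 318 CPM in the same library, against 207 to 237 CPM in the others. Gpt2 was at 885 CPM in ketogenic 6, against 445 to 590.5 CPM in the others.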

How the results depend on the processing

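The 8 genes were called higher in 0 cases under every alternative run. They were called lower in 0 cases except for 1 (Pck2) with 1 surrogate variable and, among fits with a library left out, 0 to 1. Over all genes, 328 rose and 201 fell, against 588 and 440 with DESeq2, 684 and 634 with 1 surrogate variable, 175 and 93 with the replicate number as a block, 448 and 127 with library size only (77.9% of calls were rises, against 62.0%), and 322 falls with the length trend removed. Leaving out single libraries gave 213 to 445 rises and 106 to 316 falls. Same-numbered livers were not paired by the labels, their deviations correlated at -0.29 to 0.34, and 2 of 6 ketogenic livers correlated best with their own number. Of the lists, substrate entry (1 rise, 1 fall) gave 2 rises with DESeq2, library size only and 1 surrogate variable, 0 with limma-voom, RLE factors and the block with or without the length trend; it gave 2 falls with DESeq2 and 0 with limma-voom, library size only and either block fit. Mitochondrial partners (0 rises) gave 2 with DESeq2, 4 with 1 surrogate variable, and 1 with library size only, the 1 CPM filter and the length trend removed. Shared steps (1 rise, 3 falls) gave 0 rises with the 1 CPM filter, which left Fbp2 untested, and with either block fit. The same list gave 0 falls with the block. Transcription factors (0) gave 1 rise with 1 surrogate variable or the length trend removed, and 1 fall with DESeq2 or the length trend removed and 2 with 1 surrogate variable. Hormone signalling gave 1 rise with 1 surrogate variable. Fasting response genes gave 1 rise with DESeq2 and 0 falls with limma-voom, library size only and either block fit. Clock genes (2 rises, 2 falls) gave 4 rises with DESeq2 and 0 without a filter, and 1 fall with limma-voom or without a filter and 4 with the block and length trend. With single libraries left out, the ranges were 0 to 2 rises and 0 to 2 falls for substrate entry, 0 to 2 rises for mitochondrial partners, 1 to 3 falls for shared steps, 0 to 1 falls for transcription factors and for fasting response genes, and 0 to 2 rises and 1 to 2 falls for clock genes. Of the 28 pairs, 2 correlated, 1 with the length trend removed, 0 with the replicate block (chosen after seeing the data; 3 had an exact unadjusted p under 0.05), and 1 to 3 with single libraries left out. With only 720 orders the block test could hardly reach the threshold, so its count of 0 cannot show that correlations were removed. The causes of these shifts were not tested. The rare transcripts Pck2 and Ppargc1a had 146 to 540 counts per library.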
